A study of Mus musculus with 12 samples.

Results

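The regions described here are the 100-kb bins of the mouse autosomes that lay outside lamina-associated domains (LADs) in all 4 LAD maps of early embryos, called never-LAD bins below. They number 8281 of the 23849 bins in the span (34.7%), which is 828.1 of 2384.9 Mb. On each of chromosomes 1 to 19 only the stretch bounded by its outermost LADs was considered, and a bin was a member when no interval of any of the 4 lists covered it. Because the lists themselves chose the members, the absence of LADs in them is a description and is not tested. In what follows, features the choice did not use are set beside the choice: gene content, gene identity, position, and promoter sequence.

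The maps come from DamID, in which a bacterial adenine methyltransferase (Dam) fused to lamin B1 methylates DNA near the nuclear lamina. All embryos were of 1 cross, (C57BL/6J xCBA) x DBA/2J, and all received the same injections apart from the siRNA. Zygotes were injected with 20 µM of a control siRNA (siControl) or an siRNA against Rif1 (siRif1), and both cells of 2-cell embryos later received mRNA for the auxin-degradable AID-Dam-LaminB1 (20 ng/µL), Tir1 (250 ng/µL) and membrane-eGFP (100 ng/µL). Auxin (500 µM) was removed at 54 h after hCG for embryos collected at the 4-cell stage (60 to 62 h) and at 66 h for those collected at the 8-cell stage (72 to 74 h). The 12 samples form 4 groups of 3 replicates, siControl_4C, siRif1_4C, siControl_8C and siRif1_8C, each replicate a pool of 16 to 24 cells from 4 to 6 embryos (4-cell stage) or 2 to 3 embryos (8-cell stage). The authors deposited 1 LAD list per group, made from all its replicates. The lists therefore carry no replicate error or read depth, no test between groups was possible, and no p-value is given. Where an SD is given it is over chromosomes, which are not replicates. A bin outside a list may have been below the calling threshold or not measurable with the reads, which the lists do not tell apart. Rif1 knockdown cannot be checked from these data.

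In most cell types the nuclear lamina, the protein mesh of lamins under the inner nuclear membrane, holds large, gene-poor, late-replicating and mostly silent domains. The chromatin between them lies in the nuclear interior, and is typically richer in genes, in CpG island promoters and in housekeeping genes. Rif1 is a chromatin protein that brings protein phosphatase 1 to DNA and sets replication timing.

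Promoter sequences of genes on both sides are printed as single examples beside the base composition described further on. Each runs from 250 bases before to 50 bases after a listed transcription start (RefSeq, GRCm38.p6). It is written 5′ to 3′ on the gene's strand, with its CpG dinucleotides in capitals. The first 4 belong to genes in never-LAD bins and were chosen as the members of 4 gene lists with a promoter in the table that lay farthest from any LAD. Rpl11 encodes a protein of the large ribosomal subunit (chr4:136053344-136053643, minus strand, 54.0% GC), and its midpoint lay 4.45 Mb from the nearest LAD of any list. Psmd8 encodes a subunit of the proteasome's regulatory particle (chr7:29180624-29180923, minus strand, 53.7% GC, 1.78 Mb). Esrrb encodes an orphan nuclear receptor of the pluripotency network (chr12:86360867-86361166, plus strand, 60.0% GC, 1.06 Mb). Pax7 encodes a paired-box regulator of muscle and neural progenitors (chr4:139832919-139833218, minus strand, 63.7% GC, 2.41 Mb).
Rpl11: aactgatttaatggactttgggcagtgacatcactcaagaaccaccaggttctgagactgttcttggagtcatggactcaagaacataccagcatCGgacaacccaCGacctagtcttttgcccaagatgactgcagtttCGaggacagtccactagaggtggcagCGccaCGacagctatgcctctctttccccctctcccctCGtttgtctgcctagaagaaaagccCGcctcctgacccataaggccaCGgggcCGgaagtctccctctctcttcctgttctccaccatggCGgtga
Psmd8: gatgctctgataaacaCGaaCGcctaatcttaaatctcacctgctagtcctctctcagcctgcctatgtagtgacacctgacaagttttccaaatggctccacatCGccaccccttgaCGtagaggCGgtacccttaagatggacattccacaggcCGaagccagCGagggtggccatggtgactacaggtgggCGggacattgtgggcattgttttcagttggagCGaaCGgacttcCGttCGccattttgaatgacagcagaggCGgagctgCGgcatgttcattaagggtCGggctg
Esrrb: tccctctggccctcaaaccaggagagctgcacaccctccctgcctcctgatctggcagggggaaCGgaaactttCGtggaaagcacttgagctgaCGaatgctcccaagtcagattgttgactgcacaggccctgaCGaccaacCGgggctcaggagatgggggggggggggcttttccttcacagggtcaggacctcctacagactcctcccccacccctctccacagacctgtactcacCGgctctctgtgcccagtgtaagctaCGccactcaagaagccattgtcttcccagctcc
Pax7: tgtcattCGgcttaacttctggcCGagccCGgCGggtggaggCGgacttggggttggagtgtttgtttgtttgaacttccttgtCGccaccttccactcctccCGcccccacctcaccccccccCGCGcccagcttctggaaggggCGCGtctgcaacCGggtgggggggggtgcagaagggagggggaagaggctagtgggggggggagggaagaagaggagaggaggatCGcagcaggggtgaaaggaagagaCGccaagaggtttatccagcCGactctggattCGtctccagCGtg

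For contrast, the next promoters belong to the olfactory receptor gene and the long neuronal gene lying deepest inside LADs of all 4 lists. Olfr470 (chr7:107845682-107845981, minus strand, 29.3% GC) lay 1.15 Mb from the nearest bin that was not LAD in every list. Nrxn3, a synaptic adhesion gene (chr12:88794254-88794553, plus strand, 47.3% GC), lay 1.13 Mb from such a bin. Its listed start lies 71.8 kb inside the annotated gene.
Olfr470: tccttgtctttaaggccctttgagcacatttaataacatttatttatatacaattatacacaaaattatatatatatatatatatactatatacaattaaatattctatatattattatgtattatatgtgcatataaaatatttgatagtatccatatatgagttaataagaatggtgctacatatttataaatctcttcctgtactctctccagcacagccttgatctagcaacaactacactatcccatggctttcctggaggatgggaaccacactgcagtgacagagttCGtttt
Nrxn3: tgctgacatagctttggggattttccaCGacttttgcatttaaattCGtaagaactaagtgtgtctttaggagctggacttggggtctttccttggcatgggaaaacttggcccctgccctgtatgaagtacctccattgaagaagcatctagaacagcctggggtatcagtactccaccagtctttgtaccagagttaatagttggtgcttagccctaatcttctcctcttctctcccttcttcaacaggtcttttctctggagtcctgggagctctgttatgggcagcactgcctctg
The promoters of Pax7 and Psmd8 hold 17 and 15 CpG dinucleotides, that of Rpl11 10 and that of Esrrb 7, against 2 in that of Nrxn3 and 1 in that of Olfr470. The promoters of Nrxn3 and Olfr470 are poorer in CpG than the median promoter of genes LAD in all 4 lists, which holds 9. The median never-LAD promoter holds 17. Those of Psmd8, Rpl11 and Esrrb hold fewer, and that of Esrrb holds fewer than 9 as well. Rpl11 and Psmd8 also lie below the never-LAD median GC content of 58.3%. For clustered, tissue-restricted families LAD in all 4 lists the median is 1 CpG, the same as in Olfr470.

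Never-LAD bins made up a larger share of the chromatin outside LADs in 3 of the maps than in the remaining one. In siControl_4C, 15992 bins were outside LADs and 51.8% of them were never-LAD. The share was 61.5% of 13465 bins in siRif1_4C, 62.8% of 13182 bins in siControl_8C and 60.8% of 13614 bins in siRif1_8C. The siControl_4C list has the fewest LAD bins (7857, against 10235 to 10667 in the others), so the same members are a smaller part of its interior. Distances come from the same lists and are not a separate result. The median never-LAD bin lay 1.2 Mb from a siControl_4C LAD and 1 Mb from a siRif1_4C LAD. To a LAD of either 8-cell list it was 0.9 Mb. Counted to the nearest LAD of any list, the median distance was 0.4 Mb.

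The members formed 680 unbroken stretches with a median length of 0.7 Mb (quartiles 0.4 and 1.4 Mb). Single bins were rare, with 27 stretches of 0.1 Mb, whereas 121 stretches of 2 Mb or more held 427.9 Mb, 51.7% of the total. The longest spanned 11.1 Mb. At 1083 of the 1360 stretch ends (79.6%) the next bin was LAD in 1 list alone. It was LAD in 2 lists at 208 ends, in 3 lists at 55 and in all 4 at 14 (1.03%), and 1 stretch had such a bin on both sides. The border bin was LAD in siRif1_8C at 502 ends, in siControl_8C at 480, in siRif1_4C at 398 and in siControl_4C at 340, so that no single map set most of the borders.

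Protein-coding genes were concentrated in these bins. Of 20140 protein-coding genes whose midpoint lies in the span, 11567 (57.4%) lay in the 34.7% of bins that were never LAD. Their density was 14 genes per Mb, with a mean over chromosomes of 13.9 ± 3.96 (SD, 19 chromosomes). Bins that were LAD in 1 list held 7.18 genes per Mb (7.48 ± 3.19), those LAD in 2 lists 5.24 (5.21 ± 1.57), in 3 lists 4.80 (4.88 ± 1.53) and in all 4 lists 4.75 (4.64 ± 1.87). Density was thus 1.95 times that of bins LAD in 1 list and 2.94 times that of bins LAD in 4 lists, and the step from 0 lists to 1 was the widest. On each of the 19 chromosomes the never-LAD bins were denser than every other class. The ratio to bins LAD in 4 lists ran from 1.43 to 6.40 between chromosomes.

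**Figure D1:**
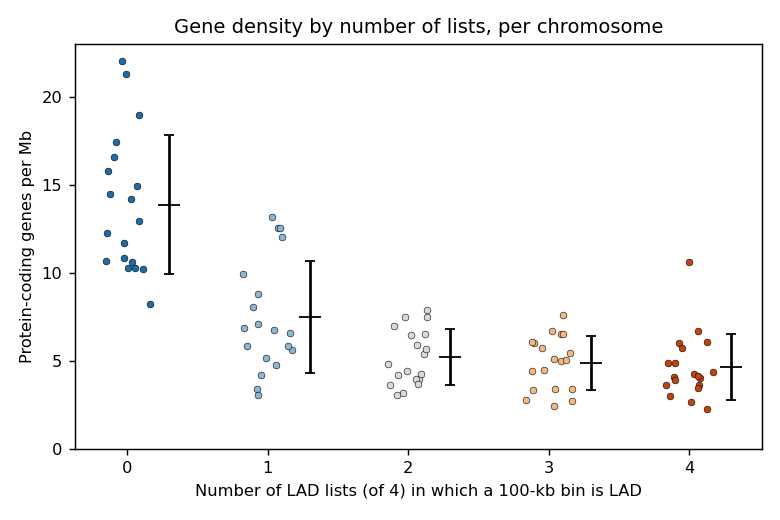
Protein-coding genes per Mb (vertical axis) in 100-kb bins grouped by the number of LAD lists, from 0 to 4, that cover them (horizontal axis). Each point is 1 of 19 chromosomes and the bars give the mean and SD over chromosomes; the never-LAD bins (0 lists) average 13.9 and the other classes 4.64 to 7.48.

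The genes of never-LAD bins were also shorter. Their median length was 16.1 kb, against 16.8 kb in bins LAD in 1 list, 19 kb in 2, 25.4 kb in 3 and 27.7 kb in 4 lists. Genes of 200 kb or longer made up 2.14% of never-LAD genes (248) and 13% of genes in bins LAD in all 4 lists (252), with 4.67% among all protein-coding genes. Bodies of 11316 of the 11567 genes (97.8%) lay wholly in never-LAD bins. The other 251 reached into a bin that some list called LAD and had a median length of 82.5 kb. Never-LAD bins were not uniformly genic: 3079 of them (37.2%) held no protein-coding gene midpoint, against 67.1% of bins LAD in all 4 lists, and 465 (5.62%) held 5 or more, against 0.758%.

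Among the members, gene density was higher at a greater distance along the chromosome from the nearest LAD of any list. Never-LAD bins next to a LAD held 11 protein-coding genes per Mb, those 2 to 3 bins away 11.5, 4 to 5 bins away 13.4, 6 to 10 bins away 15.3, 11 to 20 bins away 18.0, and those farther away 18.1. The SD over chromosomes ran from 3.51 to 8.83 in these classes, so neighbouring classes overlap, while the first and last means are 11.4 and 17.9. The last class, 577 bins, comes from 14 chromosomes. In the same order the share of bins with no protein-coding gene went from 47.6% to 24.1%. Stretch length ran with density as well: the 192 stretches of 0.4 Mb or less held 9.47 genes per Mb, and the 17 stretches of 5 Mb or more 17.6.

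Bins just outside the definition, LAD in exactly 1 list, differed by which list it was. The 786 bins that were LAD in siControl_4C alone held 12.7 protein-coding genes per Mb (12.6 ± 4.15, SD over 19 chromosomes), close to the members just inside, next to a LAD (11.4 ± 4.60). By contrast, bins LAD in siRif1_4C alone (781) held 4.78 genes per Mb, those LAD in siRif1_8C alone (1454) 5.34 and those LAD in siControl_8C alone (1030) 7.35. The siControl_4C bins were denser than the siRif1_4C bins on 19 of 19 chromosomes, and than those of each 8-cell list, taken separately, on 16 of 19. Of the 4 sets, they were the densest on 14 of 19. They were denser than the never-LAD bins of the same chromosome on 5 of 19. Of the 4051 bins LAD in 1 list, siRif1_8C accounted for 35.9% and siControl_4C for 19.4%.

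**Figure D2:**
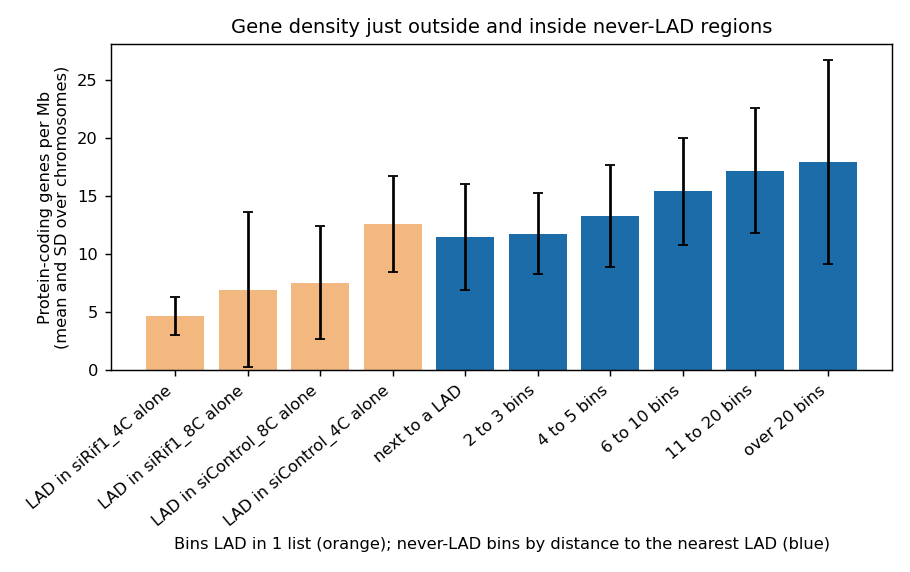
Protein-coding genes per Mb (bars, mean over chromosomes; whiskers, SD over chromosomes) in bins LAD in exactly 1 list (orange, by list) and in never-LAD bins by their distance in 100-kb bins from the nearest LAD of any list (blue). The bins LAD in siControl_4C alone (12.6) lie beside the outermost never-LAD bins (11.4), and the bins LAD in siRif1_4C alone (4.64) are lowest.

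Chromosomes differed in their never-LAD share. It averaged 34.7% ± 7.52 (SD, 19 chromosomes), was lowest on chromosome 18 (20.5%) and chromosome 3 (23.7%), and highest on chromosome 14 (45.5%), chromosome 17 (44.2%) and chromosome 5 (44.1%). The share of a chromosome's protein-coding genes in never-LAD bins exceeded its share of bins on all 19, and ran from 36.2% on chromosome 18 to 70.3% on chromosome 14. Chromosomes rich in genes were not simply those with most never-LAD bins. Chromosome 14, with 6.88 protein-coding genes per Mb, had the highest share, and chromosome 9, with 9.88, one of the lowest (25.9%). Over the 19 chromosomes, Pearson's r of share and gene density was 0.31 and Spearman's rho 0.29, given as a description.

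**Figure D3:**
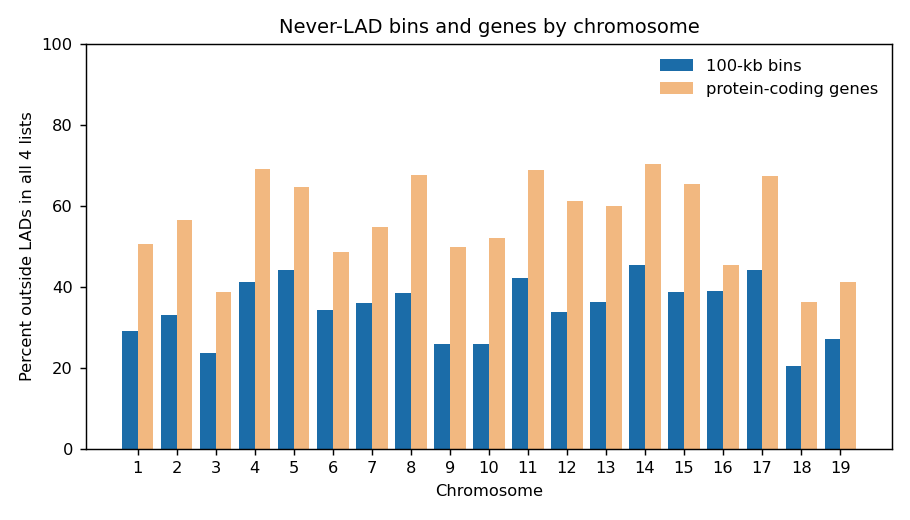
Percent of 100-kb bins (blue) and of protein-coding genes (orange) outside LADs in all 4 lists, on the vertical axis, for each autosome. The gene bar is the higher of each pair on all 19 chromosomes, with chromosome 18 lowest (20.5% of bins, 36.2% of genes) and chromosome 14 highest (45.5% and 70.3%).

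Mouse autosomes have their centromere at 1 end, and never-LAD bins were scarcer there. In the first 10 Mb of each span, 22.4% ± 11.7 (SD, 19 chromosomes) of bins were never-LAD, from 0% to 41% by chromosome. In the last 10 Mb, toward the telomere, it was 38.1% ± 20.0 (9% to 81%), and between these ends 35.7% ± 7.25. Gene density over all bins of these parts was 6.42, 10.0 and 8.49 protein-coding genes per Mb.

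The 10 longest stretches held from 66 to 247 protein-coding genes each. The first, 11.1 Mb of chromosome 2 (24800001 to 35900000), held 247 protein-coding genes, 22.3 per Mb, among them the ribosomal protein genes Rpl12 and Rpl7a, the proteasome gene Psmd5, the nucleoporin genes Nup188 and Nup214 and the histone methyltransferase gene Ehmt1. At its middle lay Sh3glb2, Miga2, Nup188, Dolpp1 and Crat, the gene of carnitine acetyltransferase. Nup188 lay 5.52 Mb from any LAD, farther than any other member of the fixed lists. The second, 10.6 Mb of chromosome 4 (131600001 to 142200000), held 206 genes. Its middle held the complement genes C1qa, C1qc and C1qb, the ephrin receptor gene Epha8 and Zbtb40, and it also held Rpl11, Pax7 and the histone demethylase gene Kdm1a.

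The third, 8.4 Mb of chromosome 7 (27400001 to 35800000), was the densest of the 10 longest, with 211 genes (25.1 per Mb). It joined the secretoglobin genes Scgb2b6, Scgb2b7, Scgb1b7 and Scgb1b3 with Rps16, Psmc4, Psmd8, the RNA polymerase II gene Polr2i and 25 zinc finger genes. Another, on chromosome 4 (122900001 to 130500000, 7.6 Mb, 123 genes), held Psmb2, Tfap2e, Ncdn, Clspn, Sf3a3, Yars and Hdac1. On chromosome 15 (79800001 to 87000000, 7.2 Mb, 113 genes) the stretch held Rpl3, Ndufa6, Nup50 and the Cyp2d genes of drug metabolism around Pacsin2, Arfgap3 and Ttll1. A stretch of chromosome 4 (40600001 to 47400000, 6.8 Mb, 130 genes), around Ccin, Clta and Reck, included 6 olfactory receptor genes.

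The other 4 of the 10 were less dense. They lay on chromosome 16 (29500001 to 36200000, 76 genes, with Rubcn, Fyttd1 and the mucin genes Muc20 and Muc4), chromosome 1 (33400001 to 40000000, 66 genes, with Actr1b, Cox5b and the T cell kinase gene Zap70), and chromosome 5 at 31300001 to 37900000 (85 genes, with Add1, Nop14 and Sh3bp2) and 115600001 to 122100000 (66 genes, with Med13l, Hrk, Fbxw8 and Tbx3). Both flanking bins of each of the 10 were LAD in 1 list alone, and which list differed between stretches: siRif1_8C on both sides on chromosome 2, siControl_8C on both sides of the olfactory stretch on chromosome 4, and siControl_4C on 1 side of 7 of the others.

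At the other extreme, 138 stretches (20.3%) held no protein-coding gene, 74.4 Mb in all. Most were short, yet 7 stretches of 2 Mb or more held fewer than 2 protein-coding genes per Mb. The largest was 4.7 Mb of chromosome 14 (92100001 to 96800000), with Pcdh9, Spertl and Klhl1 as its only protein-coding genes. Next came 4.2 Mb of chromosome 5 (57000001 to 61200000) with Pcdh7 alone, and 3.3 Mb of chromosome 3 (45500001 to 48800000) with Pabpc4l alone. Pcdh7 and Pcdh9 encode protocadherins, cell adhesion proteins of the nervous system. The longest run of members with no protein-coding gene midpoint, 3.2 Mb (chromosome 5, 58000001 to 61200000), lay between Pcdh7 and G6pd2. The next 4 lay between Pcdh9 and Spertl (2.3 Mb), Pabpc4l and the protocadherin gene Pcdh18 (2.3 Mb), 4931417E11Rik and the synaptic gene Lrrtm1 (2.2 Mb), and the teneurin gene Tenm3 and Aga (2.2 Mb).

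The bins with most genes were mainly runs of related genes. A bin of chromosome 18 (37700001 to 37800000) held 17 gamma protocadherin genes, and a bin of chromosome 10 (77700001 to 77800000) 15 genes including Krtap12-1 and Tspear. Chromosome 2 (25200001 to 25300000) had 15 in 1 bin, among them Nelfb, Tubb4b, Anapc2 and Ssna1. The remaining 2 of the top 5 were histone bins of chromosome 13 (23500001 to 23600000 with 14 genes, and 21700001 to 21800000 with 13).

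Genes for tRNAs lay in never-LAD bins more often than protein-coding genes, by gene and by bin. Of 383 tRNA genes 286 (74.7%) and of 60 rRNA genes 41 (68.3%) were in never-LAD bins, against 50.7% of all annotated genes. The tRNA genes are clustered: counting each bin once, 82 of the 131 bins that hold a tRNA gene were members (62.6%), the largest being a bin with 22 tRNA genes beside the histone genes of chromosome 13 (23400001 to 23500000). Of the rRNA genes, 36 lie in 1 bin of chromosome 8 (123500001 to 123600000), most of them annotated as 5S copies, and by bin the share was 6 of 14 (42.9%). For comparison, 5202 of the 10529 bins with a protein-coding gene (49.4%) were members.

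MicroRNA genes were in never-LAD bins in 711 of 1103 cases (64.5%), and 526 of the 822 bins with a microRNA gene (64.0%) were members. A cluster of 72 genes, nearly all of the Mir466, Mir467, Mir669 and Mir297 families, lay in 2 bins of chromosome 2 (10400001 to 10600000). Without it the share was 62.0% (639 of 1031). The bin with the next most microRNA genes holds the Mir302 cluster on chromosome 3 (127500001 to 127600000), whose products are known from pluripotent cells. It was singled out after its position was seen. Its 5 genes, Mir302a, Mir302b, Mir302c, Mir302d and Mir367, were outside LADs in all 4 lists, 0.2 Mb from the nearest LAD. Mature 3p sequences are shown to compare the seeds of the cluster's products (bases 2 to 8, in capitals), as listed by RefSeq (GRCm38.p6). That of miR-302a-3p was not available and is not shown.
miR-302b-3p: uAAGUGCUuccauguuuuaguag
miR-302d-3p: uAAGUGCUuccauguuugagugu
miR-302c-3p: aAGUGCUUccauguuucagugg
miR-367-3p: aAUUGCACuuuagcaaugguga
The first and second have the seed AAGUGCU. The listed miR-302c-3p has the seed AGUGCUU, and miR-367-3p has the seed AUUGCAC.

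Long noncoding RNA, snoRNA and snRNA genes and pseudogenes were members less often than protein-coding genes (57.4%). For comparison, 50.7% of all annotated genes and 34.7% of bins were members, so the snoRNA share is near that of all genes. Long noncoding RNA genes lay in members in 5679 of 12200 cases (46.5%), snoRNA genes in 625 of 1268 (49.3%), snRNA genes in 372 of 909 (40.9%) and pseudogenes in 3344 of 8661 (38.6%). Among the snoRNA genes are 50, 49 and 40 in 3 bins of chromosome 7 between 59400001 and 59800000, and counted by bin the share was 357 of 910 (39.2%). By bin it was 39.7% for snRNA genes and 38.1% for pseudogenes. V segments of antigen receptor genes were members in 235 of 374 cases (62.8%), including T cell receptor alpha segments such as Trav9n-1 and Trav12d-2. Per bin it was 43 of 87 (49.4%), the same as for bins with a protein-coding gene (49.4%).

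Genes of the basic cell machinery were found mostly in never-LAD bins. Of 389 such genes in 10 lists, 309 (79.4%) were members, against 57.4% of all protein-coding genes and 60.5% of those outside the clustered and tissue-restricted families (10723 of 17731). Of the 389, 12 were LAD in all 4 lists, against 1945 of all 20140 protein-coding genes (9.66%). The gene lists are described by counts alone, genes of 1 bin share their state, and no list was tested.

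Among these lists, histone genes were members in 68 of 72 cases (94.4%), in only 14 bins, 51 of them on chromosome 13. Nucleoporin genes, for the channel through the nuclear envelope, followed with 20 of 22 (90.9%) in 20 bins, and core spliceosome genes with 22 of 25 (88.0%) in 22 bins. Nup35, LAD in siRif1_8C alone, and Nup37, LAD in all 4 lists, were the other nucleoporin genes. Ribosomal protein genes were members in 59 of 74 cases (79.7%, 57 bins), and mitochondrial ribosome genes in 57 of 75 (76.0%). Of the latter, 7 were LAD in all 4 lists (9.33%), near the share of all protein-coding genes (9.66%). Of the RNA polymerase II genes 9 of 12 were members, including Polr2a, the catalytic subunit gene, and Polr2i, 2.83 Mb from any LAD. Polr2f and Polr2h were LAD in siControl_4C alone and Polr2g in siRif1_8C alone.

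Proteasome genes (33 of 47, 70.2%), cytosolic tRNA synthetase genes (14 of 20, 70.0%) and genes of respiratory complex I (23 of 34, 67.6%) followed. Psmb2, a subunit of the proteolytic core, lay 3.79 Mb from a LAD, and the complex I gene Ndufa6 2.55 Mb. Complex I genes outside the set were mostly LAD in 1 list (6 of 11, or 6 of all 34, against 14.4% of all protein-coding genes). Chaperonin genes, for the complex that folds actin and tubulin, were divided: Tcp1, Cct2, Cct3 and Cct6a were members, while Cct7 and Cct8 were LAD in both siRif1 lists, Cct4 in siRif1_8C alone and Cct5 in siControl_4C alone.

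The lists of chromatin modifiers, replication factors, nuclear envelope genes, imprinted genes, and Rif1 with its phosphatase held 71 members among 106 genes (67.0%), against 57.4% of all protein-coding genes. Rif1 itself (chromosome 2, 52072815 to 52126769) was a member, but lay only 0.0998 Mb from the nearest LAD. Of its phosphatase partners, Ppp1cb was a member and Ppp1cc was LAD in siRif1_8C alone. Of 29 replication factors 20 were members (69.0%). These include the helicase genes Mcm2, Mcm3, Mcm6 and Mcm7, the origin recognition genes Orc1, Orc2, Orc3 and Orc6, the sliding clamp gene Pcna and the polymerase genes Pold1 and Pole. Of the same complexes, Mcm4 was LAD in siRif1_4C alone, Mcm5 in 2 lists, and Orc4 and Orc5 in 3 lists each. Dbf4, whose product activates the replication kinase, was LAD in all 4 lists.

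Chromatin modifier genes were members in 19 of 28 cases (67.9%), among them Ctcf, Ezh2, Suz12, Dnmt1, Hdac1 and Kdm1a, the last 4.98 Mb from a LAD. Tet2 and Trim28 were LAD in all 4 lists. Genes of the lamina and nuclear envelope were members in 9 of 14 cases, including the lamin genes Lmna and Lmnb2 and the lamin B receptor gene Lbr. Lmnb1, which encodes the protein fused to Dam here, was LAD in siControl_4C alone, and Syne1 in all 4 lists. Imprinted genes numbered 21 of 32 (65.6%) in 17 bins. Igf2, Cdkn1c, Phlda2 and Kcnq1 on chromosome 7 were members, as were Snrpn, Ndn, Magel2 and Mkrn3. Snrpn and Kcnq1 are members through their midpoints, 0.0163 and 0.0670 Mb from a LAD, and their bodies reach into bins that some list called LAD. Dlk1, Rtl1 and Ube3a were LAD in siControl_8C alone and Rasgrf1 in all 4 lists.

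Genes of the early embryo were never LAD in 46 of 93 cases (49.5%), against 57.4% of all protein-coding genes, and differed by list. Of the 5 lists, 2 had a share above that of all protein-coding genes. The list of the 2-cell stage and genome activation was lowest (6 of 23, 26.1%). Of 19 pluripotency genes 13 were members (68.4%): Pou5f1, Klf2, Klf4, Klf5, Esrrb, Tfcp2l1, Tbx3, Prdm14, Sall4, Dppa3, Dppa5a, Tdgf1 and Utf1. Pou5f1, a core factor (chromosome 17, 35506032 to 35510777), lay 0.508 Mb from the nearest LAD, whereas Klf5, Dppa3 and Dppa5a lay within 0.1 Mb. Of the other 6, Sox2, Dppa2 and Dppa4 were LAD in 3 lists, Nanog in siRif1_8C alone, and Nr5a2 and Zfp42 in siRif1_4C alone. Trophectoderm genes were members in 10 of 15 cases, among them Tead4, Tfap2c, Gata2, Elf5, Hand1, Krt8 and Krt18. Of the others, Cdx2 was LAD in siRif1_8C alone, Ascl2 in siControl_8C alone, Eomes in both 8-cell lists, Fgfr2 in both 4-cell lists and Gata3 in 3 lists.

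Primitive endoderm genes were members in 5 of 12 cases (Gata4, Sox7, Hnf4a, Col4a1 and Col4a2). The other 7 included Gata6 and Sox17, LAD in siControl_4C alone, Pdgfra and Dab2, LAD in siRif1_4C alone, and Foxa2 and Lama1, LAD in all 4 lists. Germ layer and neural regulators were members in 12 of 24 cases, which include Otx2, Sox1, Gsc, Mesp1, Mixl1, Nkx2-5, Myod1 and Pax7, whereas T was LAD in siRif1_8C alone and Sox9 in all 4 lists. The genes of the 2-cell stage and genome activation differed from these: 6 of 23 (26.1%) were members. Another 10 were LAD in exactly 1 list, against 14.4% of all protein-coding genes. The 6 were Obox1, Obox3, Obox5, Tdpoz1, Tdpoz2 and Zscan4f, and all lay within 0.233 Mb of a LAD. Without the siControl_8C list 11 were members. These are copies in clusters, and near-identical genes are hard to tell apart by short reads; the effect of this on the lists was not tested.

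**Figure D4:**
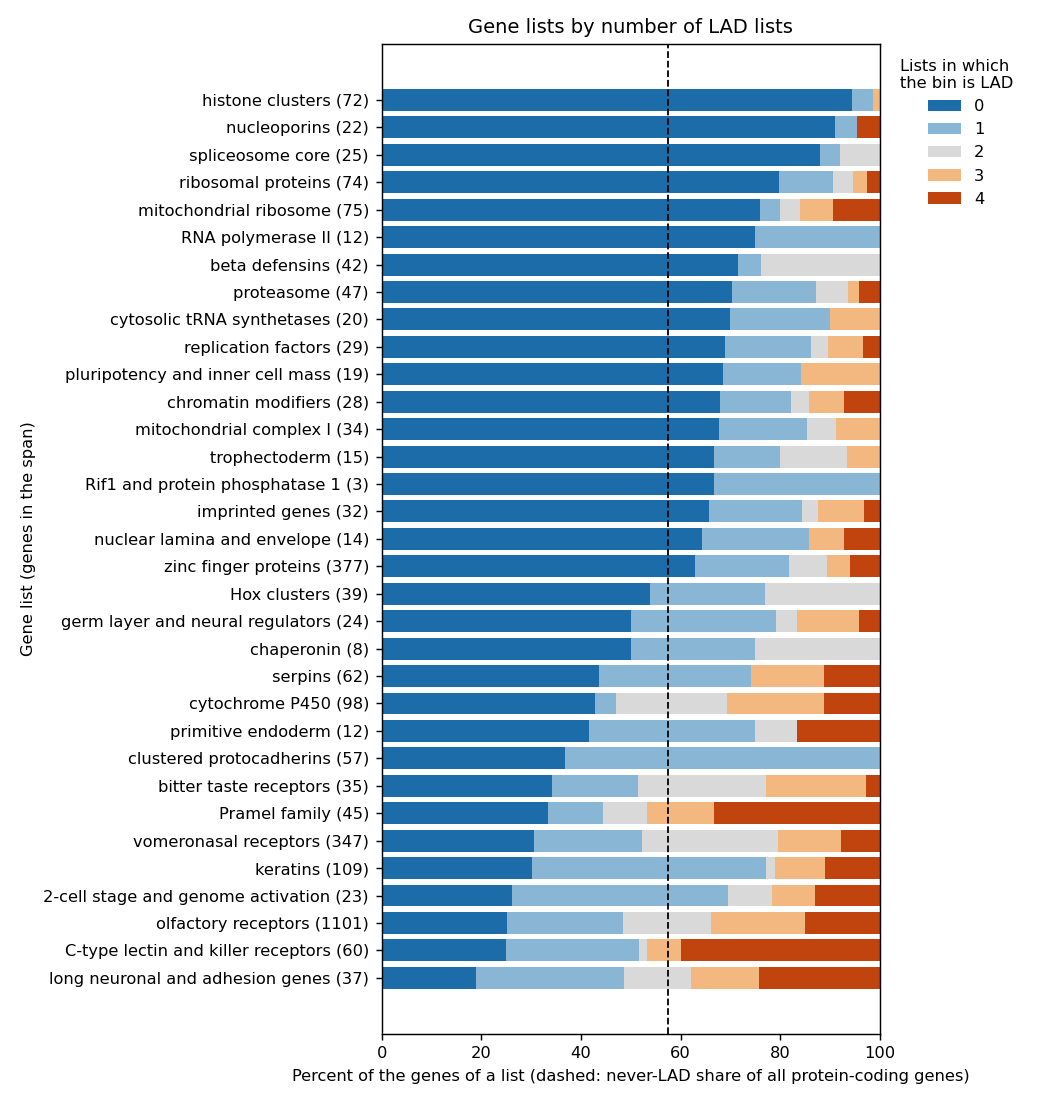
Share of the genes of each of 33 lists (horizontal bars, percent; number of genes in the span in brackets) whose bin is LAD in 0, 1, 2, 3 or 4 of the lists (colour). The dashed line marks the never-LAD share of all protein-coding genes, 57.4%; histone, nucleoporin and spliceosome genes lie highest (94.4%, 90.9% and 88.0%), and long neuronal and adhesion genes lowest (18.9%).

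Clustered and tissue-restricted families were never LAD in 844 of 2409 cases (35.0%), against 57.4% of all protein-coding genes and 34.7% of bins, and the families were divided by locus. Hox genes, which pattern the body axis, are the clearest case. All 11 HoxA genes (chromosome 6) and all 10 HoxB genes (chromosome 11) were members, up to 0.742 Mb and 1.80 Mb from the nearest LAD. The 9 HoxC genes were LAD in siRif1_8C alone and the 9 HoxD genes in both siControl lists. The 21 members lie in only 5 bins, so the genes of a cluster are not separate cases. Clustered protocadherin genes, which give neurons their surface identity, were divided within 1 locus: the 21 gamma genes were members, and the 36 alpha and beta genes were LAD in siRif1_8C alone. All 21 gamma genes lie in 2 bins within 0.131 Mb of a LAD. The border runs through the gamma cluster: 7 of these overlapping genes begin before 37700001, in the LAD bin, and are members through their midpoint. Without the siRif1_8C list all 57 were members, and with the bins next to a LAD left out 4 were. The keratin list also holds keratin-associated genes such as Krtap12-1. Its genes were members in 25 of 26 cases on chromosome 15, which holds the type II keratins. On chromosome 11, which holds type I keratins, it was 0 of 50 genes of the list. The total was 33 of 109, and 76 without the siControl_8C list.

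The sensory receptor families had low shares. Olfactory receptor genes were members in 278 of 1101 cases (25.2%), in 88 bins. By chromosome this ranged from 0 of 68 on chromosome 10, 0 of 34 on chromosome 16 and 0 of 28 on chromosome 6 to 20 of 24 on chromosome 4 and 9 of 9 on chromosome 15. On chromosomes 2 and 7, which hold the most, 43 of 287 and 38 of 239 were members. Vomeronasal receptor genes were members in 106 of 347 cases (30.5%), and in 180 cases without the siControl_8C list. On chromosome 7, which holds 176 of them, 78 were members. Bitter taste receptor genes were members in 12 of 35 cases, all 12 on chromosome 6, which holds 33 of the genes, and in 7 with the bins next to a LAD left out. C-type lectin and killer receptor genes (15 of 60, 25%) and Pramel genes (15 of 45, 33.3%) were LAD in all 4 lists in 24 and 15 cases. Without the siRif1_8C list 30 of the lectin and killer receptor genes were members. With the bins next to a LAD left out, 9 of them and 7 Pramel genes were.

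Not every clustered family was low. Beta defensin genes, for antimicrobial peptides, were members in 30 of 42 cases (71.4%, 11 bins). None was LAD in all 4 lists, against 9.66% of all protein-coding genes. Zinc finger genes were members in 237 of 377 cases (62.9%), with 35 of 37 on chromosome 13, 64 of 87 on chromosome 7 and 8 of 27 on chromosome 4. Cytochrome P450 genes (42 of 98) were members in 10 of 10 cases on chromosome 15 and in 0 of 18 on chromosome 4. Serpin genes (27 of 62) were members in 19 of 23 cases on chromosome 12 and in 0 of 14 on chromosome 1.

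Long neuronal and adhesion genes had the lowest share of the 33 lists, 7 of 37 (18.9%). Among them were Csmd2, which lay farthest from a LAD (2.22 Mb), Pcdh9 and the cadherin genes Cdh12 and Cdh18. Because such genes cross many bins, the count depends on how a gene is placed: it was 4 when all bins of a gene had to be never-LAD and 16 when any bin sufficed. It was 11 without the siControl_8C list and 13 without the siRif1_8C list. Another 11 were LAD in exactly 1 list, against 14.4% of all protein-coding genes. Of these 11, 6 were LAD in siRif1_8C alone (Cdh8, Cntnap2, Cntnap5b, Csmd1, Ctnna2 and Lrp1b).

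Promoters of never-LAD genes were richer in GC and in CpG. An outermost promoter was listed for 16122 of the 19632 protein-coding genes outside chromosome 18 (82.1%, and 81.5% to 84.3% by class). Median GC content was 58.3% in never-LAD genes (quartiles 51.7 and 65.3%, n = 9282), 54.7% in genes of bins LAD in 1 list (n = 2266), 51.0% in 2, 52.0% in 3 and 53.3% in all 4 lists (n = 1590). The median number of CpG dinucleotides in 300 bases was 17 in never-LAD promoters and 9 in those LAD in 4 lists. CpG observed over expected, which corrects for base composition, had a median of 0.665 against 0.472. It was 0.6 or more in 55.7% of never-LAD promoters and in 40.9% of those LAD in 4 lists (49.6% of all). The quartiles of GC overlap between classes, so these are shifts of broad distributions. The never-LAD median was above that of genes LAD in 4 lists on 15 of 18 chromosomes.

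**Figure D5:**
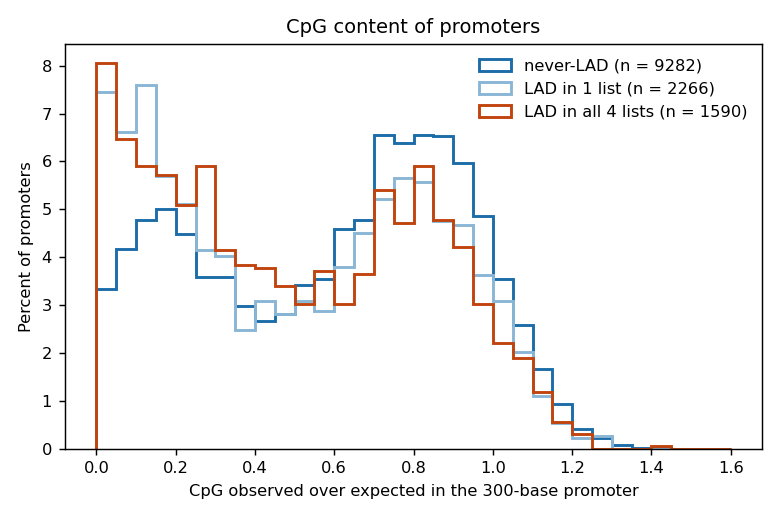
Percent of promoters (vertical axis) by CpG observed over expected in the 300-base promoter (horizontal axis), for genes in never-LAD bins (n = 9282), in bins LAD in 1 list (n = 2266) and in bins LAD in all 4 lists (n = 1590). The curves have a CpG-poor and a CpG-rich part, and 55.7% of never-LAD promoters lie at 0.6 or more against 40.9% of those LAD in all 4 lists.

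The difference was smaller outside the clustered families. Leaving out their genes, median GC was 59.0% in never-LAD genes (n = 8594), 57.7% in genes LAD in 1 list and 56.0% in genes LAD in 4 lists (n = 1333), and CpG observed over expected was 0.691, 0.645 and 0.569. Within the clustered families median GC was 45.0% in never-LAD genes (n = 688) and 38.7% in genes LAD in 4 lists (n = 257). Whether listed starts in these families are those of coding regions, as may hold for Olfr470, was not tested.

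Short motifs differed in direction. GGGCGG and CCGGAAG were more frequent in never-LAD promoters. The Sp1-type GGGCGG was in 52.7% of never-LAD promoters, 42.0% of those LAD in 1 list and 39.7% of those LAD in 4 lists (47.1% of all). The Ets-type CCGGAAG was in 14.7%, 10.4% and 7.99% (12.2% of all). The TATA-type TATAAA went the other way, with 10.7%, 15.8% and 16.7% (13.7% of all). CCAAT differed little, with 39.2%, 39.5% and 38.5% (39.1% of all). The shares did not change steadily with the number of lists. TATAAA was most frequent in promoters LAD in 2 and 3 lists (19% and 20.6%), and GGGCGG least frequent in 2 (35.8%). Outside the clustered families, never-LAD promoters differed less from those LAD in 4 lists. There GGGCGG was in 55.7% against 46.1%, CCGGAAG in 15.3% against 9.23% and TATAAA in 9.45% against 12.6%. Longer motifs of NRF1 and YY1 were rare, in 1.38% and 0.974% of all promoters. The NRF1 motif was in 1.58% of never-LAD promoters and 1.64% of those LAD in 4 lists, the YY1 motif in 1.2% and 0.503%. None of these motifs contains another, and all were searched on both strands. A match describes the letters of the promoter and does not show a bound factor.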

How the data were processed

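Genomic DNA of 12 pools of mouse embryo cells was profiled by DamID, in 4 groups of 3 replicates. The authors deposited 1 list of LAD intervals per group, made from all replicates, on a 100-kb grid with no signal values. Per the submitters' processing notes, Trimmomatic, Bowtie2, SAMtools and Picard were used with mm10 (GRCm38). The sources used here do not name the LAD caller, its settings or tool versions, and depth per sample is unknown. Replicates carry no label saying whether they came from separate embryo collections.

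Bins were scored with Python 3.11.15, pandas 2.3.3 and numpy 2.4.6, and the code was tested on simulated lists. Genes came from RefSeq (GRCm38.p6) after 333 of 47038 autosomal entries on scaffolds were dropped, and each gene was placed by its midpoint. Promoters were the outermost start listed per gene, which can lie inside the annotated gene, and chromosome 18 promoters were not used here. Named genes are the middle genes of the 10 longest stretches, the 5 longest gene-free runs, the 5 densest bins, and members of the 33 lists. Others, such as the Mir302 cluster, were chosen after their values were seen. The members and lists were chosen with earlier results of these data known. All comparisons are descriptive.

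Alternatives tried were a minimum LAD length of 300 kb, LADs joined across gaps of 200 kb or less, the span shared by all lists, bins next to a LAD left out, each list or chromosome left out, and other ways to place or choose genes.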

Additional observations from a re-analysis of the deposited data

How the results depend on the processing

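The number of never-LAD bins (8281) stayed within 1.5 times under all 27 alternatives run, from 6948 when bins next to a LAD were left out to 9735 without the siRif1_8C list. The number of stretches ran from 569 to 725. Their median length was 0.9 Mb without the siControl_8C list and 0.9 Mb without the siRif1_8C list, against 0.7 Mb, and the cause was not tested. No other alternative moved it by as much as the SD over chromosomes. Gene density ran from 11.2 to 14.5 per Mb over 32 alternatives. Its lowest value came from placing genes by their outermost start, which leaves out genes with no listed promoter; there 57.7% of genes were members, against 57.4%. Between 16 and 21 of the 33 gene lists, 18 as reported, had a share above that of all protein-coding genes, and the median promoter GC was 58.0 to 59.0%.

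Of the counts of single lists, 982 of 1023 stayed within 1.5 times. Without the siControl_8C list 180 vomeronasal receptor, 76 keratin or keratin-associated and 11 2-cell stage genes were members, against 106, 33 and 6. Without the siRif1_8C list all 57 clustered protocadherin genes and 30 lectin-like and killer receptor genes were, against 21 and 15. Leaving out bins next to a LAD left 4 protocadherin and 3 2-cell stage genes. With genes placed by their outermost start, 7 pluripotency, 6 trophectoderm and 3 primitive endoderm genes were members, against 13, 10 and 5. It was 8 tRNA synthetase, 12 Hox and 0 protocadherin genes, against 14, 21 and 21. That placement leaves out genes with no listed promoter, among them those of chromosome 18, so the counts do not tell placement from missing promoters. Alternatives that place genes by their start or leave out the clustered families were chosen after seeing the data. No replicate could be left out and no paired analysis was possible because the lists pool the replicates. Depth limits are unknown for the same reason.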
